A study of Mus musculus with 8 samples.

Results

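Narrow sites of trimethylated lysine 4 of histone H3 (H3K4me3) that were called in every library were examined in the brains of mouse embryos at stage E12.5. The peaks of the 4 H3K4me3 lists were joined into 19712 union regions wherever they touched or overlapped, and 14943 of these regions held a peak in all 4 libraries. A region counted as narrow when less than 500 bp lay under peaks in each of the 2 wild type (WT) libraries. This gave 757 regions, selected on the widths measured in the WT libraries and on the presence of a peak in every list. They were 5.07% of the shared regions and 3.84% of all union regions. The WT group had 2 libraries from control brains without Cre. The other 2 libraries came from the double knockout (dKO), in which Lats1 and Lats2 were removed with Nestin-Cre. All mice had a mixed strain background, and the labels do not give the sex of the embryos or the animal behind each library.

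H3K4me3 is written by the SET1 and MLL methyltransferase complexes, and it marks the nucleosomes around the start sites of active or poised genes, above all at CpG islands. At most such promoters the mark covers several nucleosomes on both sides of a nucleosome-free start site. Short stretches of the mark are known from weakly used promoters, from some enhancers and from promoters that are used in a minority of the cells of a tissue. LATS1 and LATS2 are the kinases of the Hippo pathway that hold back the transcriptional coactivators YAP and TAZ. Nestin-Cre acts in neural progenitors and their progeny, so cells of other origin in a whole brain, such as microglia, lie outside its main target. Only the dKO group carried Cre, and an effect of Cre cannot be told apart from the loss of the kinases. In chromatin from whole brains, fewer cells with the mark and less of the mark per cell cannot be told apart either.

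The peak positions are on mouse build mm9, counted here from 1, and no genome or annotation of that build was used. Regions are therefore named by position only, with no gene, exon, intron or promoter assigned, and whether these libraries carry the marks of brain cells was not checked. Read depth was unknown. The lists held 17367 to 19486 peaks, fewest in dKO replicate 2. The narrowest peak of any kind was 200 bp in WT replicate 1, 205 bp in WT replicate 2, 215 bp in dKO replicate 1 and 210 bp in dKO replicate 2. Members thus lay between that floor and the 500 bp limit in WT.

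The narrow regions mostly held 1 peak per library. A single peak in every library made up 751 of the 757 (99.2%). The rule in part fixes this, since 2 peaks of at least 200 bp leave little room under 500 bp in WT. Of the narrow regions missing from at least 1 library, 2207 of 2209 also had a single peak in WT replicate 1. In dKO replicate 2 it was 397 of 397. For the other shared regions it was 12482 to 13319 of 14186 over the 4 libraries. Of those 751, 742 (98.8%) had bases common to all 4 peaks, with a median of 256.5 bp in common out of a median of 464 bp covered by any library. The 4 calls of a site lay close on each other. The midpoints of the peaks of a region differed by a median of 29.5 to 32.5 bp in each of the 6 pairs of libraries, and the starts by 38 to 46 bp. The pair formed by the dKO libraries (29.5 bp) and the pair formed by the WT libraries (30 bp) were no closer than WT replicate 1 with either dKO library (29.5 bp each). Score ranks were more alike between libraries than widths, whose range the rule limits. Across the 751 regions, which share their libraries, Spearman's rho between the widths of a pair of libraries ran from 0.30 to 0.40, and rho between their score percentiles from 0.52 to 0.64.

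The width of a member is the length under peaks of that library in the region. In WT replicate 1 the members ran from 200 to 499 bp with a median of 375 bp, and in WT replicate 2 from 205 to 499 bp with a median of 384 bp. The upper end of both ranges was set by the rule. In dKO replicate 1, which carried no limit, the median was 364 bp and the range 215 to 2185 bp. In dKO replicate 2 the median was 314 bp and the range 210 to 1988 bp. The dKO replicate 2 library thus stood below the other 3, and it was the narrowest of the 4 in 373 members (49.3%). This was not particular to the members. Over all shared regions the medians were 1161 and 1222 bp in the WT pair against 1128 and 1033 bp in the dKO pair, again lowest in dKO replicate 2.

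**Figure D1:**
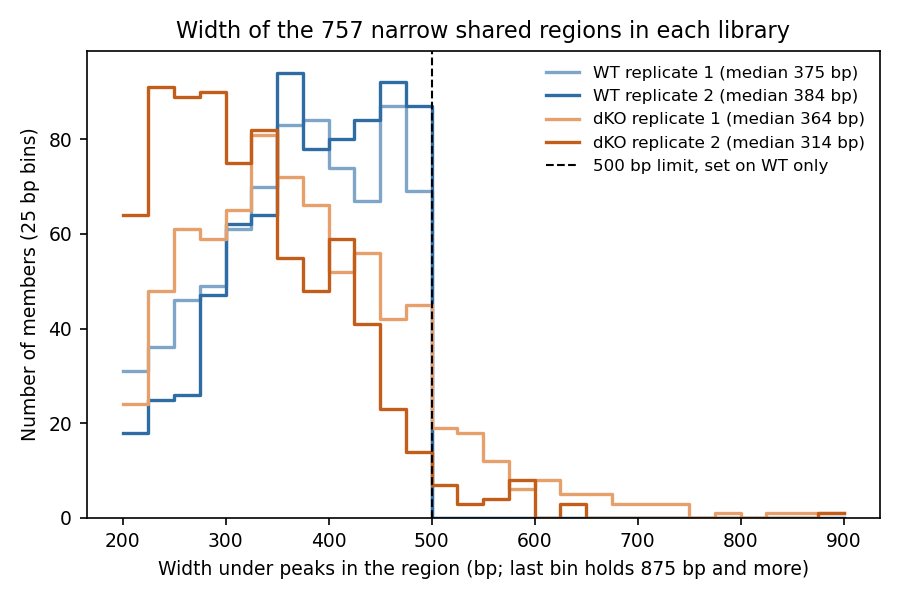
Number of the 757 narrow shared regions (vertical axis, bins of 25 bp) by the width under peaks in bp (horizontal axis), with 1 line per library and the 500 bp limit dashed. The WT lines stop at the limit because the rule sets it there, the dKO replicate 1 line has a tail beyond it, and the dKO replicate 2 line lies to the left with a median of 314 bp.

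Most members stayed narrow in the knockout. In dKO replicate 1, 671 of them (88.6%) were under 500 bp, in dKO replicate 2 it was 731 (96.6%), and in both it was 657 (86.8%). There were 12 members (1.59%) that reached 500 bp in both dKO libraries, 4 went beyond 750 bp in at least 1 dKO library, and 1 went beyond 1000 bp. The limit also fell inside a continuous range of widths. In 7 members the wider WT library had 499 bp, and in 6 shared regions just outside the limit it had 500 bp. In the first 5 of those 6 by position, the dKO widths ran from 220 to 778 bp.

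The narrow regions ranked low within each list. The score in the deposited lists is on a scale that the labels do not name, so it was used only as a percentile of its own list, where 0 is the weakest and 100 the strongest peak. The median member stood at percentile 24.8 in WT replicate 1 and 26.3 in WT replicate 2. In the dKO libraries it stood at 20.3 in replicate 1 and 16.8 in replicate 2. The shared regions that were not narrow had medians of 63.2, 63.1, 60.3 and 58.6 in the same order. Score and width come from the same peaks, so a low rank was in part fixed by the rule. Within the members, Spearman's rho between width and score percentile was 0.30 and 0.31 in WT replicates 1 and 2 and 0.39 and 0.40 in dKO replicates 1 and 2.

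The order of the region classes was the same in every library. Shared regions whose wider WT width was 500 to under 750 bp (1853 regions) had medians between percentile 23.6 and 34.1. Those of 750 to under 1500 bp (6921 regions) lay between 53.7 and 59.1, and those of 1500 bp or more (5412 regions) between 74.8 and 77.1. Narrow regions missing from at least 1 library, with under 500 bp in every list (3934 regions), were lower than the members. Their medians were 9.81 and 10.6 in WT replicates 1 and 2 and 8.03 and 6.31 in dKO replicates 1 and 2. Of the members, 438 (57.9%) stayed at or above percentile 10 in all 4 libraries, and 16 (2.11%) were below it in all 4.

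**Figure D2:**
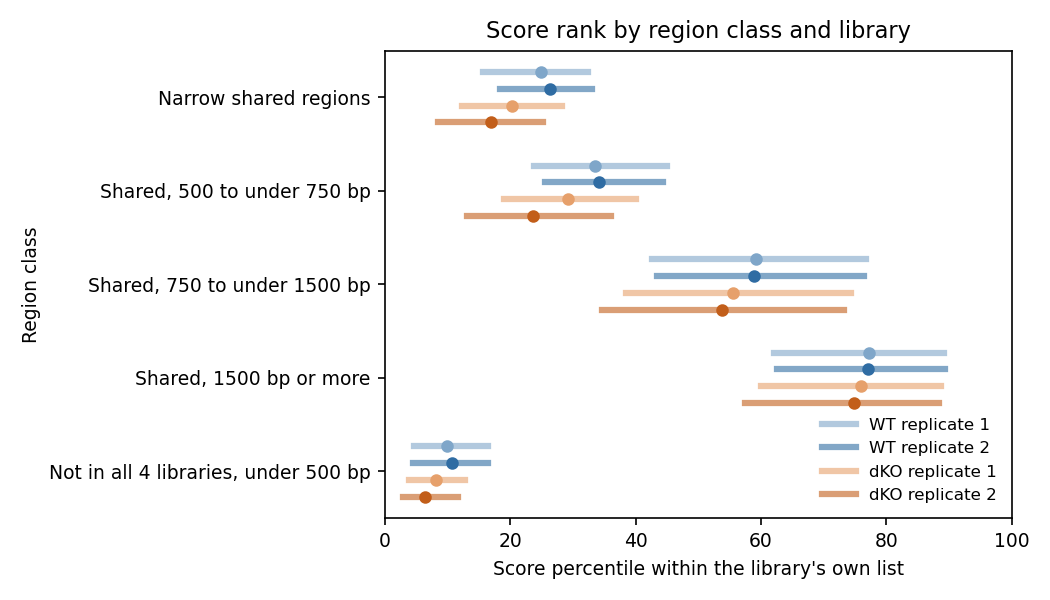
Score percentile within each library's own list (horizontal axis) for 5 classes of region (vertical axis), where points are medians and bars run from the first to the third quartile. The narrow shared regions lie between percentile 16.8 and 26.3 by their medians, above narrow regions missing from a library and below every wider class of shared region.

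Percentiles from lists of different lengths cannot be read as a change of the mark. When every list was cut to its 17367 highest scores, the medians of the members still listed were 18.2 and 19.7 in WT replicates 1 and 2 and 18.2 and 16.8 in dKO replicates 1 and 2. These limited lists kept 643, 678, 705 and 757 members in that order. On full lists the mean of the library medians was 25.6 ± 1.09 for the WT pair against 18.6 ± 2.44 for the dKO pair (SD, n = 2 per genotype). WT widths were chosen to be low, so this difference carries no test. With 2 libraries against 2, a 2-sided exact permutation test could not give a p below 0.3333 in any case.

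A few members were narrow and yet ranked high. Only 3 of the 757 (0.396%) stood above the median of the list in all 4 libraries, against 7386 of the 14186 other shared regions (52.1%). The first was on chromosome 4 from 126644999 to 126645523, which measured 439 and 462 bp in the WT pair (replicates 1 and 2) against 427 and 523 bp in the dKO pair. Its scores stood at percentiles 93.5, 76.2, 87.3 and 89.8 in the same order. A wider shared region from 126644004 to 126644880 ended 118 bp before it and ranked lower in every library, at percentiles 53.6 to 59.5. By its lowest percentile this was the highest ranked of the narrow sites.

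The second strong site had no close neighbour. It lay on chromosome 10 from 19627054 to 19627550, where peaks covered 466 and 486 bp in the WT pair against 440 and 438 bp in the dKO pair. Its percentiles were 71.6 and 59.3 in WT and 59.5 and 74.5 in dKO, and the next region was 25751 bp away. The third, on chromosome 1 from 125942245 to 125942658, measured 349 and 358 bp in the WT pair against 411 and 306 bp in the dKO pair at percentiles 50.8 to 56.8. A shared region 102 bp before it measured 560 and 478 bp in the WT pair against 540 and 290 bp in the dKO pair and ranked lower in every library.

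The remaining 7 of the 10 members with the highest lowest percentile were on chromosomes 7, 10, 11, 14, 15 and 17, with a lowest percentile of 44.1 to 49.4. Of these 7, 6 had a shared region within 278 bp, and the member on chromosome 14 from 45971103 to 45971596 was 20601 bp from the next region. The member on chromosome 11 from 97606162 to 97606515 was the narrowest of the 10. It measured 342 and 337 bp in the WT pair against 300 and 320 bp in the dKO pair, 125 bp from a region of 1071 to 1171 bp.

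The distance from the members to the next region had a near and a far mode. Distances were measured from edge to edge between union regions. The median was 318 bp for the members and 16516 bp for the other shared regions. Of the members, 423 (55.9%) lay within 1000 bp of another region and 282 (37.3%) within 200 bp. For the other shared regions these shares were 25.2% and 14.9%. The rule is looser with fewer libraries. The members' median distance was then 554 bp (WT replicate 1 left out), 721.5 bp (WT replicate 2 left out), 308 bp (dKO replicate 1 left out) or 878 bp (dKO replicate 2 left out). For the other shared regions it was 16011 to 16678 bp. A limit of 600 bp gave 1764 bp, the 500 bp limit on the dKO libraries 1951.5 bp and on the mean of all 4 libraries 1769 bp, beside 16908 to 16984.5 bp. Between these near members and the far ones, 38 (5.02%) lay from 1000 to 5000 bp and 108 (14.3%) from 5000 to 20000 bp, and 188 (24.8%) were over 20000 bp from any other region. The other shared regions had 7.59%, 20.8% and 46.4% at these 3 distances.

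**Figure D3:**
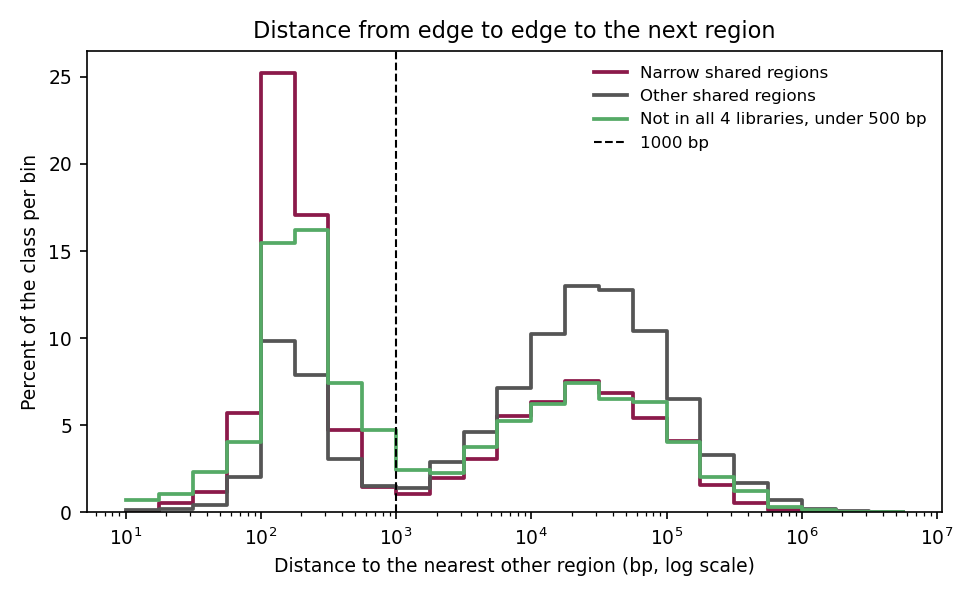
Percent of each class of region (vertical axis) by the edge-to-edge distance to the nearest other region in bp (horizontal axis, log scale), with 1000 bp dashed. All 3 classes have a near and a far mode. The low point between them is close to 1000 bp in the shared classes. In the narrow regions missing from a library it lies between 1000 and 3162 bp. Of the narrow shared regions, 55.9% fall on the near side of 1000 bp.

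Closeness to another region became less common with width. Within 1000 bp of a neighbour lay 36.6% of the shared regions of 500 to under 750 bp, 24.4% of those of 750 to under 1500 bp and 22.2% of those of 1500 bp or more. It was not particular to sites that every library shared. Of the narrow regions missing from at least 1 library, 52.0% lay within 1000 bp of another region, with a median distance of 786 bp. The construction of the regions bears on these values, since a peak that touches a wider peak in any library becomes part of that wider region and is no longer a narrow one.

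Distances were also taken inside each list, from a member to the next peak of the same library. In WT replicate 1, 388 members (51.3%) had the next peak of that list within 1000 bp, and in WT replicate 2 it was 404 (53.4%). In dKO replicate 1 it was 381 (50.3%) and in dKO replicate 2 it was 346 (45.7%). The values for the other shared regions were 20.9, 22.4, 18.3 and 16.2% in the same order. In both classes the share was lowest in dKO replicate 2, the list with the fewest peaks. No 2 peaks of a list were ever closer than 101 bp, a minimum found in all 4 lists, so stretches of the mark nearer to each other than that do not appear as separate peaks.

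**Figure D4:**
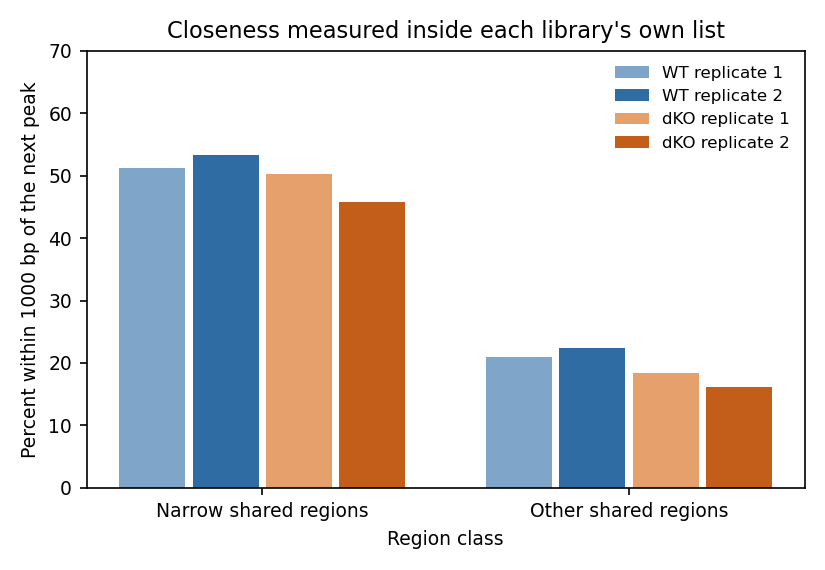
Percent of regions (vertical axis) whose next peak in the same list lies within 1000 bp, for the narrow shared regions and the other shared regions (horizontal axis), with 1 bar per library. The bars of the narrow regions run from 45.7 to 53.4%, and those of the other shared regions from 16.2 to 22.4%.

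What lay next to a close member was most often a wider region of the same shared set. Wider shared regions made up 14186 (72.0%) of all 19712 union regions. Among the 6393 union regions with another region within 1000 bp they were 3568. The share thus depends on the set it is taken from, and no trait of the members is read from it. There were 290 members (38.3%) whose nearest neighbour within 1000 bp was a wider shared region, 37 (4.89%) next to another member, and 96 (12.7%) next to a region missing from at least 1 library. The other 334 (44.1%) were isolated, with the next region over 1000 bp away and a median distance of 25860 bp. Close members next to a wider shared region had median widths of 365.5 and 378 bp in the WT pair against 362.5 and 321 bp in the dKO pair. Isolated members had 392 and 402.5 bp in the WT pair against 376.5 and 311.5 bp in the dKO pair. The isolated members were thus 14 to 26.5 bp wider in 3 libraries and 9.5 bp narrower in dKO replicate 2.

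Isolated members ranked lower in each list than the members beside a wider region. Their median percentiles were 22.4 and 23.9 in WT replicates 1 and 2 and 18.3 and 13.9 in dKO replicates 1 and 2. Members beside a wider region had 27.1 and 29.2 in WT and 22.2 and 19.5 in dKO. The difference was 3.97 to 5.57 percentiles over the 4 libraries, and it was not tested, since regions are not replicates.

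The 290 members beside a wider region had 288 distinct partner regions. The median ratio of the partner's width to that of the member was 3.00 to 3.28 over the 4 libraries. The rule in part fixes this, since members were under 500 bp in WT and partners were not. Partners measured a median of 1103.5 and 1131 bp in the WT pair, below 1203.5 and 1263 bp for the other shared regions. In the dKO pair it was 1080.5 and 1010 bp against 1173 and 1070 bp. The partner ranked higher than the member in all 4 libraries in 233 of the 290 pairs (80.3%). Score and width come from the same peaks, so the rule bears on this rank too. The partner lay on the side of lower coordinates in 130 pairs and of higher coordinates in 160. From outer edge to outer edge, member and partner spanned a median of 1728 and 1757 bp in the WT libraries and of 1694.5 and 1628 bp in the dKO libraries. Between the peaks of a pair, the gap without a called peak had a median of 214.5 and 204.5 bp in WT replicates 1 and 2. In dKO replicates 1 and 2 it was 214 and 253.5 bp. Whether the gap carried the mark was not tested. The gap was thus alike in 3 libraries and larger in dKO replicate 2.

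Between genotypes the gap did not overlap in 97 of the 290 pairs. It was larger in both dKO libraries than in both WT libraries in 81 pairs (27.9%) and smaller in both in 16 (5.52%). Over all 1329 neighbouring pairs of shared regions within 1000 bp, the shares were 33.7% and 4.44%. The median gap over those pairs was 240 and 226 bp in WT replicates 1 and 2 and 250 and 297 bp in dKO replicates 1 and 2. It was again largest in dKO replicate 2, and larger than for the members in all 4 libraries. The pairs of the members take only the nearest neighbour, which favours short gaps, so these medians are not alike in kind. The partner regions, which are not members, had a median log2 width ratio of dKO to WT of -0.09, beside -0.12 over the other shared regions.

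The narrow regions were slightly narrower in dKO by their median, as shared regions were in general. The width of each region was compared as the log2 ratio of its mean dKO width to its mean WT width, without centring. The median was -0.10 over the members, with quartiles of -0.28 and 0.064, and -0.12 over all shared regions. Which of the 2 medians was lower changed with the rule. The mean of the library medians was 379.5 ± 6.36 bp for the WT pair against 339 ± 35.4 bp for the dKO pair (SD, n = 2 per genotype). The spread was larger in dKO, where replicate 1 (364 bp) was near the WT values and replicate 2 (314 bp) was not. Because the rule chose low WT widths, the contrast between genotypes carries no test here.

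Counts of regions without overlap between genotypes are given with the same restriction. Of the members, 61 (8.06%) were wider in both dKO libraries than in both WT libraries, where 4.17% of all shared regions were. A further 211 (27.9%) were narrower in both dKO libraries, where 39.1% of all shared regions were. The other 485 members overlapped between genotypes. These shares depend on which libraries carry the limit, and nothing is read from them.

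The dependence on the limit was measured by choosing regions from other libraries. Regions under 500 bp in WT replicate 1 alone numbered 1291. Their median was 399 bp in that library, 469 bp in WT replicate 2, 411 bp in dKO replicate 1 and 344 bp in dKO replicate 2. Of these, 58.6% were also under 500 bp in WT replicate 2. Regions under 500 bp in dKO replicate 1 alone numbered 1502, with medians of 383 bp there, 347.5 bp in the other dKO library and 455 and 480 bp in the WT pair. With the limit on both dKO libraries instead of WT, 1338 regions were chosen and the median log2 ratio was -0.32, beside -0.11 over the shared regions not chosen. That set held 657 of the 757 members (86.8%), which were 49.1% of it. With the limit on the mean of all 4 libraries, which favours neither genotype, there were 1393 regions and the ratio was -0.23, again beside -0.11. Under the members' rule with a library left out, the ratio was -0.045 against -0.062 for the other shared regions (dKO replicate 2 left out) and -0.21 against -0.18 (dKO replicate 1 left out). It was -0.017 against -0.089 with WT replicate 2 left out and -0.082 against -0.15 with WT replicate 1 left out. Narrow regions were thus above the others under some of these rules and below them under others.

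The widest excess in dKO was on chromosome 2 from 117937631 to 117939938, a member with 345 and 378 bp in the WT pair against 2185 and 1988 bp in the dKO pair. The dKO replicate 1 width was a single peak. The 1988 bp of dKO replicate 2 were the sum of 3 peaks, of 415, 1056 and 517 bp, and the peak at the WT position was the one of 415 bp. Its position in WT was that of a narrow peak next to another, since a shared region from 117936921 to 117937502 ended 128 bp before it. That neighbour measured 489 and 562 bp in the WT pair against 366 and 367 bp in the dKO pair, so it was not wider in dKO. The score percentile of the member's strongest peak was 32.0 and 28.7 in WT and 41.6 and 56.6 in dKO, and in dKO replicate 2 that was the peak of 415 bp. No other member exceeded 1000 bp in any library.

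The next member by this measure was far smaller in its excess. On chromosome 2 from 91864021 to 91864908, it had 219 and 420 bp in the WT pair against 825 and 582 bp in the dKO pair. The smaller dKO width exceeded the larger WT width by 162 bp. Its dKO replicate 2 width was made of 2 peaks, of 210 and 372 bp. Replicates lay far apart in both genotypes, with means of 319.5 ± 142 bp for the WT pair against 703.5 ± 172 bp for the dKO pair (SD, n = 2 per genotype).

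Members with closer replicates had excesses of 102 to 133 bp. On chromosome 16 from 21310752 to 21311373 peaks covered 350 and 394 bp in the WT pair against 527 and 598 bp in the dKO pair. On chromosome 14 from 55512138 to 55512706 it was 374 and 370 bp in the WT pair against 493 and 569 bp in the dKO pair, 317 bp from a region of 1472 to 1524 bp. On chromosome 15 from 79722322 to 79722974 it was 462 and 463 bp in the WT pair against 565 and 589 bp in the dKO pair. The excess of the 10 members named by this rule ran from 1610 bp down to 96 bp. Of these 10, 7 were isolated, beside 28 of the 61 members wider in both dKO libraries and 44.1% of all members. Nothing is read from so few.

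The members with the largest deficit in dKO measured 215 to 328 bp in the dKO libraries, close to the floor of the lists. On chromosome 18 from 9450314 to 9450775 peaks covered 457 and 435 bp in the WT pair against 230 and 237 bp in the dKO pair. The next region there, 140 bp away, measured 1244 and 1231 bp in the WT pair against 1211 and 1125 bp in the dKO pair. On chromosome 17 from 56807970 to 56808445 peaks covered 474 and 457 bp in the WT pair against 223 and 278 bp in the dKO pair. The score percentile of that member was 31.1 and 22.8 in WT and 1.63 and 1.48 in dKO, near the bottom of both dKO lists.

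The third was on chromosome 1 from 94727368 to 94727839, 108 bp from a region of 1678 to 2590 bp. Its widths were 436 and 446 bp in the WT pair against 265 and 228 bp in the dKO pair. An isolated member on chromosome 8 from 55686049 to 55686491 had the closest replicates of the 10. It measured 432 and 434 bp in the WT pair against 272 and 274 bp in the dKO pair, and its score percentile was 21.5 and 29.9 in WT and 0.094 and 1.48 in dKO. The distance from the narrower WT to the wider dKO width was 142 to 198 bp over the 10 members. Of these 10, 8 were isolated, beside 97 of the 211 members narrower in both dKO libraries and 44.1% of all members. Nothing is read from so few. No member had a mean dKO width under 50% of its mean WT width, which the 500 bp limit and the floor of 200 to 215 bp leave little room for.

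**Figure D5:**
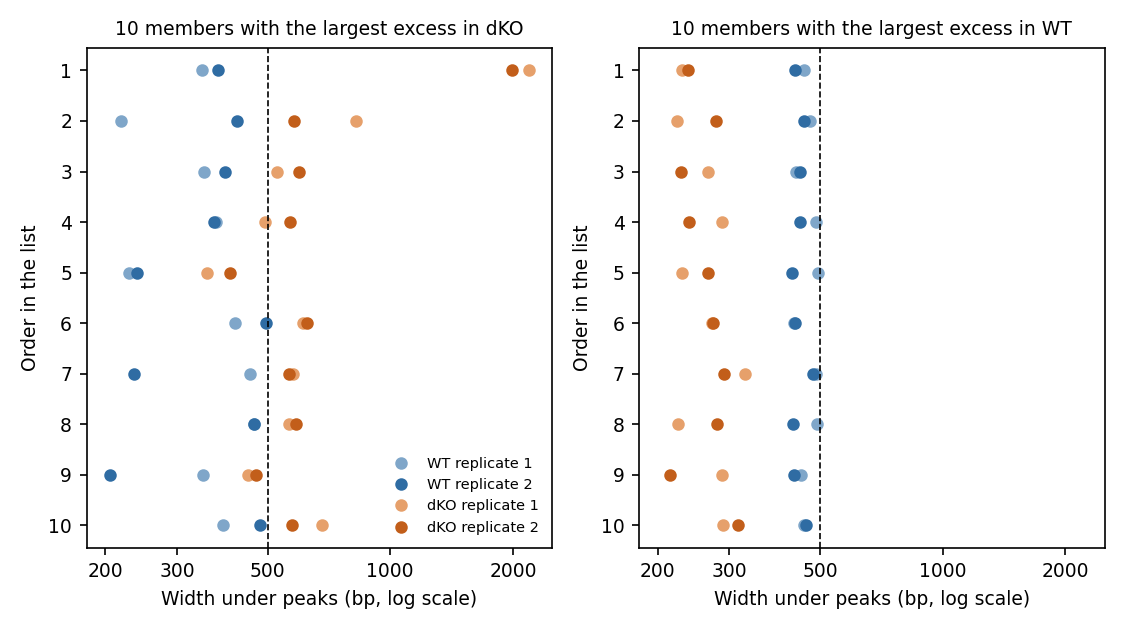
Width under peaks in bp (horizontal axis, log scale) in each of the 4 libraries for the 10 members with the largest excess in dKO (left) and in WT (right), in order of that excess (vertical axis), with 500 bp dashed. The first member on the left has 345 and 378 bp in the WT pair against 2185 and 1988 bp in the dKO pair, the last of these being the sum of 3 peaks, and on the right all dKO points lie between 215 and 328 bp.

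The narrowest members sat at the floor of the lists. The smallest mean over the 4 libraries, 228.5 bp, was on chromosome 11 from 117685555 to 117686031, where peaks covered 200 and 244 bp in the WT pair against 260 and 210 bp in the dKO pair. Its next region was 301 bp away and measured 1140 to 1363 bp. On chromosome 5 from 138227639 to 138227929 the widths were 205 bp in both WT libraries and 291 and 216 bp in dKO. A region of 981 to 2629 bp ended 28 bp before that one. All 5 of the narrowest members had another region within 379 bp. Members within 20 bp of the narrowest peak of the list numbered 29 (3.83%) in WT replicate 1 and 18 (2.38%) in WT replicate 2. They numbered 46 (6.08%) in dKO replicate 1 and 90 (11.9%) in dKO replicate 2. Closeness to the floor was not particular to the members. In dKO replicate 2 the first quartile of width was 259 bp for the members and 226 bp for the narrow regions missing from at least 1 library.

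At the other end, 5 members were 359051 to 974832 bp from the next region. The farthest was on chromosome 14 from 44502849 to 44503626, where peaks covered 437 and 387 bp in the WT pair against 778 and 507 bp in the dKO pair. Its score percentile was 40.3, 34.1, 34.4 and 25.1 in WT replicates 1 and 2 and dKO replicates 1 and 2, above the median member in all 4. The second, on chromosome 2 from 147702538 to 147702943, had 226 and 406 bp in the WT pair against 335 and 273 bp in the dKO pair at percentiles of 6.31 to 16.2. The others were on chromosomes 1, 3 and X, at percentiles of 6.31 to 38.2.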

How the data were processed

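H3K4me3 ChIP-seq peak lists of 4 libraries were used, 2 WT and 2 dKO. The 4 input libraries were not analysed here. The submitters' processing notes name MACS2 2.1.1.20160309, bedtools, BWA 0.7.12-r1039, SAMtools, Picard 2.6.0 and R 2.14.0 and the build mm9. Thresholds and the use of input are not given in the sources used here. The deposited lists give peak positions and a score on a scale the authors do not name in the labels, used only to rank peaks within a list. Depth was unknown, so no interval could be given.

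Peaks were merged with bedtools 2.31.1 at distance 0, and widths, distances and score percentiles (mid-ranks) were computed with Python 3.11.15, pandas 2.3.3 and numpy 2.4.6, after a check on simulated lists. Plots used matplotlib 3.10.9. The reference tables at hand were of another build (GRCm38.p6), so no peak was annotated and no sequence read. Members, classes and lists were chosen with earlier results of these data known. Named regions are the 10 members with the highest lowest percentile, the 10 with the largest excess in either genotype, the 5 narrowest, the 5 most distant, the 5 closest pairs of members and the 5 on each side of the limit. No test was run, because the rule uses WT widths and regions are not replicates. Alternatives were other limits, other merging and sharing rules, shorter lists, autosomes and leaving out each library.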

Additional observations from a re-analysis of the deposited data

How the results depend on the processing

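No paired analysis was possible because no result here comes from a test. The number of members was 757, but 299 with a limit of 400 bp and 1395 with 600 bp, 1338 with the limit on the dKO libraries, 1393 with it on the mean of all 4, 350 with peaks within 1000 bp merged, 33 with lists of 12000 peaks, and 932 to 1464 with a library left out (1163 without WT replicate 1, 1464 without WT replicate 2, 1337 without dKO replicate 2), since fewer libraries loosen the rule. The median score percentile, 22.1 as the mean over libraries, was 19.5 with 400 bp, 19.4 merged, 20.2 with lists as long as the shortest, 19.1 with 12000 peaks, and 18.9 to 20.8 with a library left out. The median distance, 318 bp, was 1764 bp with 600 bp, 1951.5 bp with the limit on dKO, 1769 bp on the mean and 25945 bp merged, where no distance can be under 1000 bp. It was 308 to 878 bp with a library left out. The share within 1000 bp, 55.9%, was 65.6% with 400 bp, 48.9% with 600 bp, 48.4% with the limit on dKO, 48.8% on the mean, 0% merged by construction, and 50.6 to 57.0% when 1 library was left out. In every setting but the merged one this share was above that of the other shared regions, which ran from 10.6 to 26.3%. The median log2 width ratio, -0.10, was -0.32 with the limit on dKO, -0.23 on the mean, and -0.21 to -0.017 with a library left out, lowest without dKO replicate 1 and highest without WT replicate 2. It was below 0 in all 13 alternatives. So was the ratio of the other shared regions, which ran from -0.18 to -0.062, and the sign is therefore not particular to the members. Lists of 12000 peaks leave out most members by their low score. Depth is unknown, its part in the widths was not tested, and a site just under the threshold in 1 library is no member.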

Other observations

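Some narrow regions lay next to each other. Members were 3.84% of all union regions, and 423 of the 6393 union regions with another region within 1000 bp. Of these 423 members, 37 had another member as the nearest, and nothing is read from this count. In 20 places 2 members lay within 1000 bp, which took in 40 members (5.28%). The closest such pair was on chromosome 3, from 37622563 to 37623034 and from 37623106 to 37623541, with 71 bp between the regions. The first measured 351 and 339 bp in the WT pair against 401 and 420 bp in the dKO pair, and the second 344 and 359 bp in the WT pair against 363 and 290 bp in the dKO pair. On chromosome 8 the members from 124109040 to 124109444 and from 124109521 to 124109918 were 76 bp apart and unequal in rank. The first stood at percentiles 32.0 to 56.8 over the 4 libraries and the second at 5.39 to 11.6. The next 3 pairs, on chromosomes 2, 13 and 7, were 81, 84 and 89 bp apart. In all, 50 members (6.61%) had a region within 1000 bp on both sides.

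The members were spread over all autosomes and chromosome X, and none was on chromosome Y, where no region was shared by all 4 libraries. They made up 3.15% of the shared regions on chromosome 18, the lowest share, and 6.17% on chromosome X (29 of 470), the highest. Chromosome 2 held the most, 71 of 1192 shared regions (5.96%).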
